A study of Mus musculus with 14 samples.

Results

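Thrombospondins and other matricellular proteins were followed in the left ventricle of mice after pressure overload. The set held 10 genes, taken by symbol from the table of read counts, and all 10 were found among its 49315 genes: the thrombospondins Thbs1, Thbs2, Thbs3 and Thbs4, their relative Comp (cartilage oligomeric matrix protein), and Postn (periostin), Tnc (tenascin C), Spp1 (osteopontin), Sparc and Fn1 (fibronectin). All 10 had enough reads to be tested. The study asked how a gain-of-function mutation of the pacemaker channel gene Hcn4 affects the heart at rest and under load. RNA-Seq was performed on left ventricular tissue of wild-type mice (WT) and of knock-in mice (HCN4F), which carry a tyrosine-to-phenylalanine exchange in the channel. Male animals of both genotypes underwent transverse aortic constriction (TAC), a narrowing of the aorta that raises the pressure against which the left ventricle pumps, or a Sham operation, at an age of 10 to 12 weeks, and hearts were taken 5 weeks later. The libraries analysed were 4 of WT-Sham, 4 of HCN4F-Sham, 4 of HCN4F-TAC and 2 of WT-TAC (replicates 2 and 3). The knock-in is carried by the whole animal and not by the ventricle alone, so that an effect in ventricular cells and one that acts through pacemaking cannot be told apart. The samples were described as biological replicates, and p-values measure the spread between them.

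Matricellular proteins are secreted into the extracellular matrix, where they bind cells, growth factors and matrix fibers rather than bear load themselves. Most are abundant in development, low in the healthy adult heart, and made again by fibroblasts and other cells after injury or under pressure overload. Thrombospondins bind calcium and fall into a subgroup that assembles as trimers, Thbs1 and Thbs2, and one that assembles as pentamers, Thbs3, Thbs4 and Comp. Thbs1 activates latent transforming growth factor beta and binds the receptors Cd36 and Cd47, and Thbs4 also acts inside the cell, where it has been linked to the stress sensor Atf6.

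The sequences just upstream of the start site are shown for genes that rose after TAC in HCN4F mice (Thbs4, Postn, Tnc and Spp1) and for Thbs2, which did not rise with them. They are the 250 bases before the start, 5′ to 3′ on the gene's strand, from RefSeq on GRCm38.p6, in which 7 of the 10 genes were matched by symbol (all but Thbs1, Comp and Fn1). Where a gene had several entries, the one nearest to its annotated start was taken, which lay within 27 bases of the GENCODE start for all but Sparc, at 3103 bases. The Sparc window is counted among the 7 and held none of the motifs searched. The windows lie at chr13:92794819-92795068 (minus strand) for Thbs4, chr3:54360857-54361106 (plus) for Postn, chr4:64047016-64047265 (minus) for Tnc, chr5:104434861-104435110 (plus) for Spp1 and chr17:14694263-14694512 (minus) for Thbs2. Capitals mark matches, on either strand, to 5 short motifs, which were TATAAA, found in promoters with a fixed start, TGANTCA (AP-1), CATTCC (TEAD), GGGCGG (GC box) and CCAAT (a box bound by NF-Y), and to the CArG box of serum response factor.
Thbs4: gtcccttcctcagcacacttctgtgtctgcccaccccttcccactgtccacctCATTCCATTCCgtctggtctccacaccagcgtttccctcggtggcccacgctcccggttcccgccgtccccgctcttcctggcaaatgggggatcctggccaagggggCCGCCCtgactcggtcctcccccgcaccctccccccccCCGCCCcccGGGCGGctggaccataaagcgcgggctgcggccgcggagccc
Postn: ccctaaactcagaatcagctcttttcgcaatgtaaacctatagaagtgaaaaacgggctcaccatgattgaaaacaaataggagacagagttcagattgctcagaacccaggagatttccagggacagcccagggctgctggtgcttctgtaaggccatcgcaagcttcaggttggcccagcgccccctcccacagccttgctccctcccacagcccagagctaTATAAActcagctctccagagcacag
Tnc: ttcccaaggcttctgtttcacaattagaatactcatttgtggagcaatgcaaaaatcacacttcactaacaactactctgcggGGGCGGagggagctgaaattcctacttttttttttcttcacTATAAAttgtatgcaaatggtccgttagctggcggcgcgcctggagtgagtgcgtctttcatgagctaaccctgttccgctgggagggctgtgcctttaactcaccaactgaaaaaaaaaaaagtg
Spp1: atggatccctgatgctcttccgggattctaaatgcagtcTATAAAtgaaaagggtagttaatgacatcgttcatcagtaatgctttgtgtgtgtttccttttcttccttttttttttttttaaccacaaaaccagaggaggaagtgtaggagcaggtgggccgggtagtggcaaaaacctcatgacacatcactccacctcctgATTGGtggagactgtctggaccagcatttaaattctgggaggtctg
Thbs2: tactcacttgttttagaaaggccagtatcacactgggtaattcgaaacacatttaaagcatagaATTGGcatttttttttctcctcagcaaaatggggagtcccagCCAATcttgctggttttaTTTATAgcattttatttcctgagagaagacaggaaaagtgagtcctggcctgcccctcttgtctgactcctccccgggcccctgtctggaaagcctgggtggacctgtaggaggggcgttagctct

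The letters TATAAA were present in 4 of the 7 windows, those of Thbs2, Postn, Tnc and Spp1, against 12.4% of all 32851 windows of this length. In Postn they stood 26 to 21 bases before the start site, and in the other windows further upstream. CATTCC was found in 1 of the 7 windows (12.6% of all windows), that of Thbs4, where a pair of overlapping matches covered bases 197 to 187 before the start. GGGCGG was present in 3 windows (32.7% of all), those of Thbs3, Thbs4 and Tnc, and CCAAT in 3 (33.8%), those of Thbs2, Thbs3 and Spp1. Neither TGANTCA (6.75% of all windows) nor the CArG box (1.47%) matched in any of the 7. No searched motif was shared by all 4 windows of the genes that rose. These matches describe letters and not bound sites.

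The depth of the libraries ranged from 22309914 to 35210939 counts, and mitochondrial genes took 19.6% to 23.1% of them in WT-Sham, 17.1% to 21.4% in HCN4F-Sham, at least 18.4% in both WT-TAC libraries and 13.9% to 18.6% in HCN4F-TAC. The share was lowest in HCN4F-TAC replicate 2, the library of that group with the highest level for 7 of the 10 genes, and its part in the results was not tested. Levels are given as CPM, the counts of a gene scaled to a common library size with edgeR's TMM factors. A gene is said to have risen or fallen, or to be called, where its adjusted p was under 0.05 and its change was more than 1 on the log2 scale. Hcn4 itself averaged 9.45 ± 1.07 CPM (SD, n = 4) in WT-Sham, 9.07 ± 2.87 (n = 4) in HCN4F-Sham, 12.7 ± 1.12 (n = 2) in WT-TAC and 6.72 ± 2.54 (n = 4) in HCN4F-TAC. The mutation exchanges an amino acid and gene counts do not show it, so these levels do not check the genotype. The 7 cardiomyocyte markers, led by Myh6, were all present in every group, with a summed level of 45195 to 71731 CPM, and the 3 adipocyte markers summed to at most 0.452 CPM.

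In the WT-Sham ventricle Sparc, a collagen-binding protein, was by far the most abundant of the 10 transcripts. Divided by the length of all exons in kilobases, it reached 115 ± 7.67 CPM per kb (SD, n = 4), followed by Fn1 at 4.35 ± 0.0958. Thbs2 (2.47 ± 0.148), Postn (2.19 ± 0.140) and Thbs1 (2.11 ± 0.619) came next with overlapping ranges, then Thbs4 (1.62 ± 0.328), Comp (1.12 ± 0.259) and Thbs3 (0.911 ± 0.0757). The range of Thbs4 overlapped with those of Postn, Thbs1 and Comp, and the range of Comp with those of Thbs1 and Thbs3. Tnc, at 0.185 ± 0.0176 CPM per kb, and Spp1, at 0.104 ± 0.0862, were lowest and overlapped. HCN4F-Sham kept the same genes at the top and bottom, with Sparc at 119 ± 24.6 CPM per kb and Spp1 at 0.183 ± 0.109.

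After TAC the order was another one in HCN4F mice. Sparc stayed first at 191 ± 35.2 CPM per kb (n = 4), but Thbs1 (17.0 ± 6.62), Postn (10.9 ± 5.50), Comp (10.4 ± 6.32) and Thbs4 (4.30 to 15.9) had higher means than Fn1 (8.53 ± 2.01). Every library of Thbs1 exceeded those of Fn1, and all other pairs of these 5 genes overlapped, so that their order is not resolved. Thbs2, at rank 3 of 10 in both Sham groups, was at rank 7 in HCN4F-TAC with 2.28 ± 0.371 CPM per kb, and Comp moved from rank 7 to rank 4. When length was taken from the longest transcript, Postn passed Thbs2 in both Sham groups, which put Thbs2 at rank 4, and in HCN4F-Sham it also passed Thbs1. In WT-TAC Fn1 passed Thbs1. In HCN4F-TAC Postn passed Thbs1 and Fn1 passed Thbs4.

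**Figure D1:**
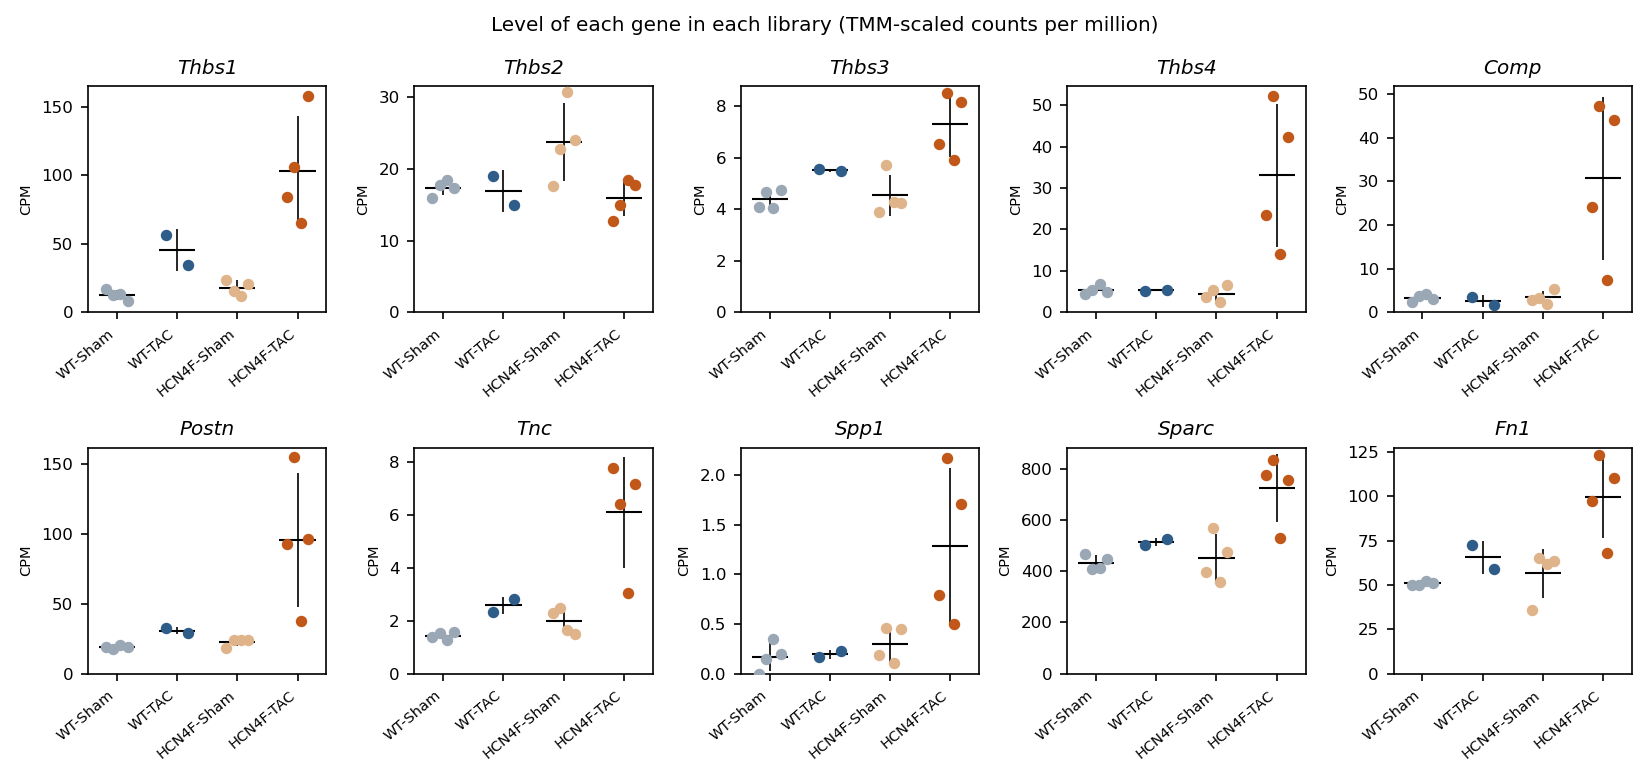
Level of each of the 10 genes in CPM (vertical axis, linear and starting at 0, a scale for each gene) in every library of the 4 groups; points are libraries in order of replicate number, horizontal lines group means and vertical lines the SD. In HCN4F-TAC the points of Thbs4, Comp and Postn spread widely but lie above all others, whereas the points of Thbs2 do not.

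Thbs1 was the gene of the set that TAC raised in both genotypes. It lies at chr2:118111876-118127133 (plus strand; GRCm38 here and for the other genes). Its level was 17.1, 12.6, 13.5 and 8.0 CPM in the WT-Sham libraries, 23.6, 15.7, 11.5 and 20.7 in HCN4F-Sham, 56.4 and 34.4 in WT-TAC, and 84.1, 106, 65.1 and 158 in HCN4F-TAC. Every TAC library stood above every Sham library, and every HCN4F-TAC library above both WT-TAC libraries. In WT mice it rose by a log2 fold change of 1.82 (SE 0.39, edgeR's quasi-likelihood test, adjusted p = 0.0296), or 3.54-fold (95% interval 1.97 to 6.37). It rose by 2.53 in HCN4F mice (SE 0.34, adjusted p = 0.000815), or 5.78-fold (3.46 to 9.64). The call in WT mice was lost when WT-Sham replicate 1 (adjusted p = 0.0546), 2 (0.0541) or 4 (0.0758) or WT-TAC replicate 2 (log2 fold change 1.43, adjusted p = 0.172) or 3 (2.14, 0.161) was left out, in edgeR's test.

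Thbs2, the other thrombospondin that forms trimers and a regulator of collagen fibril assembly (chr17:14665500-14694235, minus strand), took a different course. It measured 15.9, 17.7, 18.4 and 17.4 CPM in WT-Sham, 17.6, 22.8, 30.7 and 24.0 in HCN4F-Sham, 19.0 and 14.9 in WT-TAC, and 12.8, 14.9, 18.4 and 17.7 in HCN4F-TAC. The 3 highest values were all of HCN4F-Sham, and the ranges of all 4 groups overlapped. Its log2 fold change with TAC was -0.03 in WT mice (95% interval -0.42 to 0.35, adjusted p = 0.938 in edgeR's test) and -0.58 in HCN4F mice (-0.89 to -0.26, adjusted p = 0.0163), the latter without reaching the fold required for a call. It was the single gene of the 10 with a negative value in HCN4F mice, at 23.8 ± 5.39 CPM in Sham and 15.9 ± 2.60 in TAC hearts. The adjusted p in HCN4F mice was 0.0507 without HCN4F-TAC replicate 1 and 0.0533 without replicate 2.

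For Thbs4 and Comp the log2 fold changes with TAC lay farthest apart between the genotypes, a difference whose test is given with the interaction. Thbs4 (chr13:92751590-92794818, minus strand), which is made in tendon, muscle and stressed heart, lay at 4.32, 5.30, 6.84 and 4.90 CPM in WT-Sham, 3.61, 5.25, 2.49 and 6.61 in HCN4F-Sham, 5.18 and 5.30 in WT-TAC, and 23.6, 52.2, 14.1 and 42.3 in HCN4F-TAC. The WT-TAC values fell inside the Sham range, whereas the lowest HCN4F-TAC value was above every other library. It rose in HCN4F mice by a log2 fold change of 2.87 (SE 0.41, adjusted p = 0.00121 in edgeR's test), or 7.32-fold (3.93 to 13.7). In WT mice the log2 fold change was -0.03 (SE 0.51, adjusted p = 0.986), with a 95% interval of -1.15 to 1.10 that reaches just past a doubling or a halving.

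Comp (chr8:70373558-70382066, plus strand), best known as a component of cartilage and tendon, measured 2.40, 3.70, 4.17 and 3.07 CPM in WT-Sham, 2.86, 3.29, 1.95 and 5.34 in HCN4F-Sham, 3.57 and 1.55 in WT-TAC, and 24.1, 47.4, 7.28 and 44.2 in HCN4F-TAC. As for Thbs4, all 4 HCN4F-TAC libraries exceeded all others, and replicate 3 was the lowest of them. The rise in HCN4F mice was 3.18 on the log2 scale (SE 0.55, adjusted p = 0.00339 in edgeR's test), or 9.03-fold (3.94 to 20.7), the largest of the 10 genes. In WT mice the log2 fold change was -0.43 with an interval of -2.09 to 1.23 (adjusted p = 0.786), which leaves a change of either sign possible.

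Thbs3 (chr3:89215180-89226837, plus strand), the remaining thrombospondin that forms pentamers, differed less. It averaged 4.39 ± 0.365 CPM in WT-Sham, 4.54 ± 0.793 in HCN4F-Sham, 5.51 ± 0.0556 in WT-TAC and 7.30 ± 1.25 in HCN4F-TAC. All TAC libraries stood above the Sham libraries of their genotype, yet the log2 fold changes, 0.32 in WT (adjusted p = 0.276) and 0.69 in HCN4F mice (adjusted p = 0.00367 in edgeR's test), were under the fold required for a call. Thbs3 lies entirely within the span of Mtx1, a gene of the mitochondrial outer membrane read from the other strand, and the use of strand in counting is not given in the sources used here, so reads of the 2 genes cannot be told apart with certainty.

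Among the other matricellular genes, Postn, Tnc and Spp1 rose in HCN4F mice. Postn (chr3:54361109-54391037, plus strand), a product of activated fibroblasts, stood at 19.0, 17.7, 20.6 and 18.8 CPM in WT-Sham, 18.4, 24.0, 24.4 and 24.1 in HCN4F-Sham, 32.5 and 28.9 in WT-TAC, and 92.8, 155, 37.5 and 96.2 in HCN4F-TAC. The 4 groups formed 3 steps without overlap, with both Sham groups lowest, WT-TAC above them and HCN4F-TAC highest. The rise in HCN4F mice was 2.07 on the log2 scale (SE 0.32, adjusted p = 0.00189 in edgeR's test), or 4.20-fold (2.58 to 6.84), and the value in WT mice was 0.69 (SE 0.38, adjusted p = 0.320).

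Tnc (chr4:63959785-64047015, minus strand), which is made at sites of tissue strain and repair, measured 1.40, 1.52, 1.26 and 1.57 CPM in WT-Sham, 2.30, 2.46, 1.66 and 1.48 in HCN4F-Sham, 2.34 and 2.81 in WT-TAC, and 7.76, 6.39, 3.04 and 7.16 in HCN4F-TAC. All HCN4F-TAC libraries were again the highest, while the WT-TAC values overlapped with HCN4F-Sham. It rose by 1.63 in HCN4F mice (SE 0.24, adjusted p = 0.000465 in edgeR's test), or 3.10-fold (2.17 to 4.43). In WT mice its log2 fold change of 0.84 had an interval of 0.18 to 1.50, with an adjusted p of 0.125.

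Spp1 (chr5:104435118-104441050, plus strand), a ligand of integrins and of Cd44 that macrophages and fibroblasts secrete after injury, was close to the limit of detection. It measured 0.00, 0.145, 0.344 and 0.196 CPM in WT-Sham, 0.188, 0.456, 0.108 and 0.453 in HCN4F-Sham, 0.164 and 0.229 in WT-TAC, and 0.788, 2.17, 0.495 and 1.71 in HCN4F-TAC, from 0 to 66 reads per library. Where no read was counted, up to 3 are still compatible with it, which is 0.0859 to 0.137 CPM across the libraries and covers counting error only. The HCN4F-TAC libraries were above the rest, the lowest of them narrowly. The rise of 2.09 in HCN4F mice (SE 0.55, adjusted p = 0.0197 in edgeR's test) was lost without HCN4F-Sham replicate 3 (adjusted p = 0.0505), HCN4F-TAC replicate 2 (log2 fold change 1.69, adjusted p = 0.0756) or HCN4F-TAC replicate 4 (0.0531), and without the filter on low counts (0.0582). In WT mice the interval of -1.77 to 2.23 covers both signs.

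Sparc and Fn1, the most abundant of the 10 transcripts per kb in Sham hearts, differed by smaller factors. Sparc (chr11:55394500-55423183, minus strand) measured 467, 407, 412 and 449 CPM in WT-Sham, 399, 570, 358 and 476 in HCN4F-Sham, 503 and 525 in WT-TAC, and 776, 836, 531 and 757 in HCN4F-TAC. A single HCN4F-Sham library, replicate 2, exceeded the lowest HCN4F-TAC library, replicate 3. Its log2 fold changes were 0.24 in WT (adjusted p = 0.424) and 0.68 in HCN4F mice (adjusted p = 0.00523 in edgeR's test), or 1.61-fold in the latter (1.30 to 1.98).

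Fn1 (chr1:71585520-71653200, minus strand), the adhesive glycoprotein on which many matrix fibers are laid down, averaged 50.9 ± 1.12 CPM in WT-Sham, 56.6 ± 13.8 in HCN4F-Sham, 65.7 ± 9.25 in WT-TAC and 99.7 ± 23.5 in HCN4F-TAC. Its log2 fold change was 0.37 in WT (adjusted p = 0.362) and 0.82 in HCN4F mice (adjusted p = 0.0114 in edgeR's test). For both genes the adjusted p in HCN4F mice passed the threshold and the fold did not.

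Counted over the set, TAC raised 1 of the 10 genes in WT mice, where 0.445% of the 15292 tested genes were called higher, and 6 of the 10 in HCN4F mice, where 1.58% were called higher. None was called lower in either genotype by edgeR's test, which called 0.262% and 1.16% of all genes lower. At an unadjusted p under 0.05, 2 genes passed in WT mice (22.0% of all tested genes) and all 10 in HCN4F mice (28.3%). On the adjusted p alone, all 10 passed in HCN4F mice, 9 higher and Thbs2 lower (7.20% of all genes passed higher and 6.41% lower). The median log2 fold change of the 10 was 0.28 in WT mice, beside -0.02 over all tested genes, and 1.85 in HCN4F mice, beside -0.01. No overlap between TAC and Sham libraries was seen for 6 genes in WT mice, all higher with TAC (19.2% of all genes), and for 8 in HCN4F mice, all higher (7.95%). The WT comparison rests on 2 TAC libraries and its intervals are wider for each of the 10 genes.

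**Figure D2:**
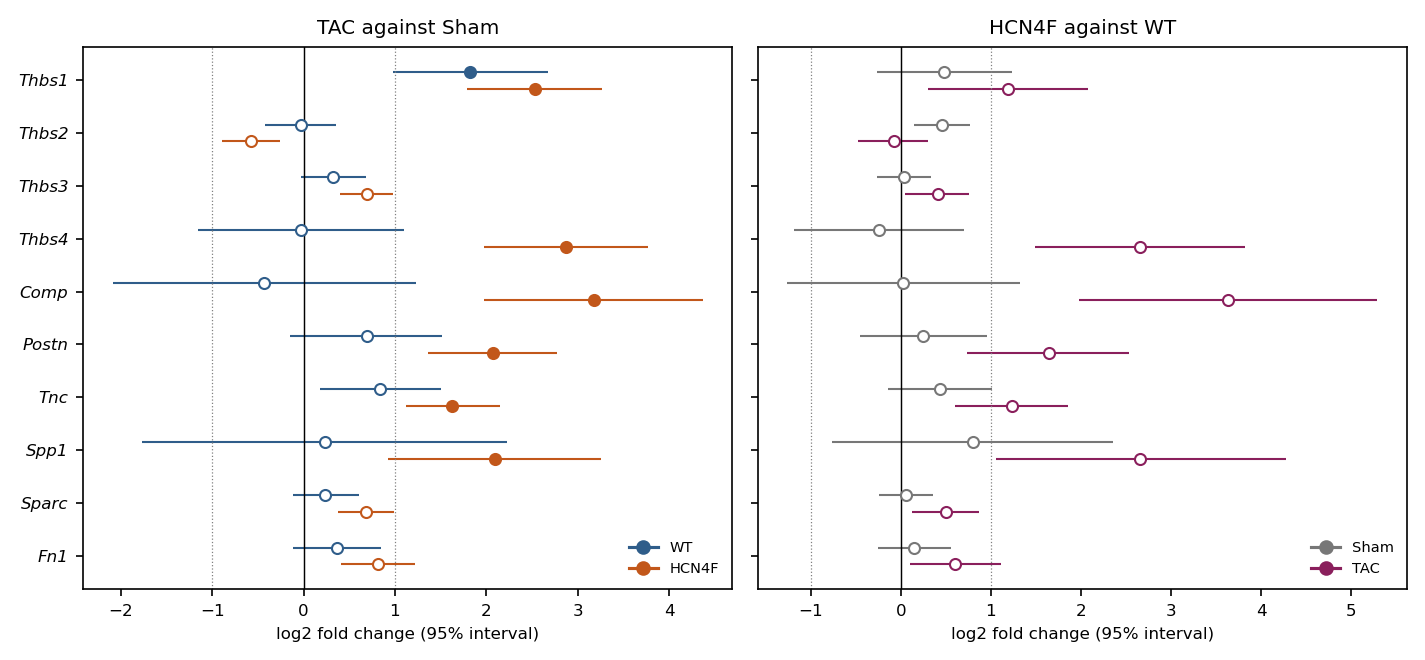
Log2 fold change of each gene (horizontal axis) with its 95% interval, for TAC against Sham in WT and HCN4F mice (left) and for HCN4F against WT mice in Sham and TAC hearts (right); filled points were called and open points were not, and dotted lines mark the fold required. Thbs4 and Comp lie at -0.03 and -0.43 in WT mice and at 2.87 and 3.18 in HCN4F mice.

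In Sham hearts none of the 10 genes differed between HCN4F and WT mice by edgeR's test, and 0.209% of all tested genes were called in either direction. DESeq2 on all groups called none of the 10 either (0.440% of all genes). By edgeR's test, 1 of them had an unadjusted p under 0.05 (15.2% of all tested genes). This was Thbs2, at 17.3 ± 1.04 CPM in WT-Sham and 23.8 ± 5.39 in HCN4F-Sham, with a log2 fold change of 0.46 (95% interval 0.15 to 0.77) and an adjusted p of 0.157. The intervals of Thbs3 (-0.26 to 0.34), Sparc (-0.24 to 0.36) and Fn1 (-0.25 to 0.56) excluded a doubling. Those of Thbs1 (-0.26 to 1.23), Tnc (-0.14 to 1.01), Comp (-1.26 to 1.32) and Spp1 (-0.76 to 2.36) did not, and that of Thbs4 (-1.18 to 0.70) did not exclude a halving.

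The comparisons of genotypes use the same libraries as those of TAC with Sham and are not independent of them. Between the TAC groups the median difference was 1.21 on the log2 scale, beside 0.20 between the Sham groups, but edgeR's test called none of the 10 genes (0.0719% of all genes in either direction). At an unadjusted p under 0.05, 9 of the 10 passed, against 12.5% of all tested genes, and for 8 of the 10 all HCN4F-TAC libraries exceeded both WT-TAC libraries, against 11.3% of all genes. Comp was 12.4-fold higher in HCN4F-TAC (95% interval 3.93 to 39.2, adjusted p = 0.102), Spp1 6.34-fold (2.09 to 19.2, 0.170), Thbs4 6.31-fold (2.82 to 14.1, 0.0999) and Postn 3.11-fold (1.67 to 5.77, 0.153). Tnc was 2.34-fold higher (1.51 to 3.63, 0.110) and Thbs1 2.28-fold (1.23 to 4.23, 0.259). Thbs3 (1.33-fold, 0.334), Sparc (1.41-fold, 0.259) and Fn1 (1.52-fold, 0.315) differed by less, and Thbs2 was at 0.943-fold with an interval of 0.722 to 1.23.

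The call between the TAC groups depended on the test and on 1 library. DESeq2 fitted on all groups, which called 0.561% of the genes, called 5 of the 10 higher in HCN4F-TAC: Comp (adjusted p = 3.74e-05), Thbs4 (7.51e-05), Postn (0.00740), Tnc (0.0124) and Spp1 (0.0356). Fitted on the 2 TAC groups only, where it called 0.490% of the genes, DESeq2 called 4, with Postn at an adjusted p of 0.183. In edgeR without HCN4F-TAC replicate 3 the same 5 genes were called (1.03% of all genes), with adjusted p-values of 0.000184 for Postn, 0.00112 for Tnc, 0.00192 for Comp, 0.00412 for Thbs4 and 0.0283 for Spp1.

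Whether the response to TAC itself differed between genotypes was tested as an interaction, called on the adjusted p alone. No gene of the 15292 was called by edgeR's test (0.00%), and 4 of the 10 had an unadjusted p under 0.05, against 9.27% of all genes. These were Comp with a difference in log2 fold change of 3.60 (SE 0.94, adjusted p = 0.418), Thbs4 with 2.90 (SE 0.67, 0.392), Postn with 1.38 (SE 0.51, 0.473) and Thbs2 with -0.54 (SE 0.23, 0.495). For Thbs1, the gene raised in both genotypes, the difference was 0.71 with an interval of -0.43 to 1.84. DESeq2 called Thbs4 (adjusted p = 0.00584) and Comp (0.0146), with 0.284% of all genes called. Without HCN4F-TAC replicate 3, edgeR called 3 of the 10, Postn (adjusted p = 0.0155), Comp (0.0284) and Thbs4 (0.0310), and 0.510% of all genes. Whether the response of these genes is called larger in HCN4F mice thus depends on the test and on that library.

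The makeup of the thrombospondin family also differed between the groups. The summed level of its 5 genes was 8.24 ± 0.772 CPM per kb in WT-Sham (n = 4), 9.78 ± 1.26 in HCN4F-Sham (n = 4), 13.5 ± 3.45 in WT-TAC (n = 2) and 41.2 ± 17.3 in HCN4F-TAC (n = 4). Thbs2 made up 30.2 ± 2.65% of it in WT-Sham and 35.4 ± 10.8% in HCN4F-Sham, but 18.2 ± 1.57% in WT-TAC and 6.58 ± 3.91% in HCN4F-TAC, with no overlap between TAC and Sham libraries. Thbs1 took 25.5 ± 7.03% in WT-Sham and 54.8 ± 5.01% in WT-TAC, where it was more than all its relatives together.

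In HCN4F-TAC the share of Thbs1 was 42.7 ± 7.30%, and Thbs4 and Comp took 23.6 ± 4.27% and 23.1 ± 8.04%. In WT-TAC these last genes held 12.2 ± 3.31% and 6.14 ± 2.01%. In all 4 HCN4F-TAC libraries Thbs4 held more of the family than Thbs2, which was not so in any library of the other groups. Shares of a common sum depend on each other, so that a smaller share does not show a lower level.

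**Figure D3:**
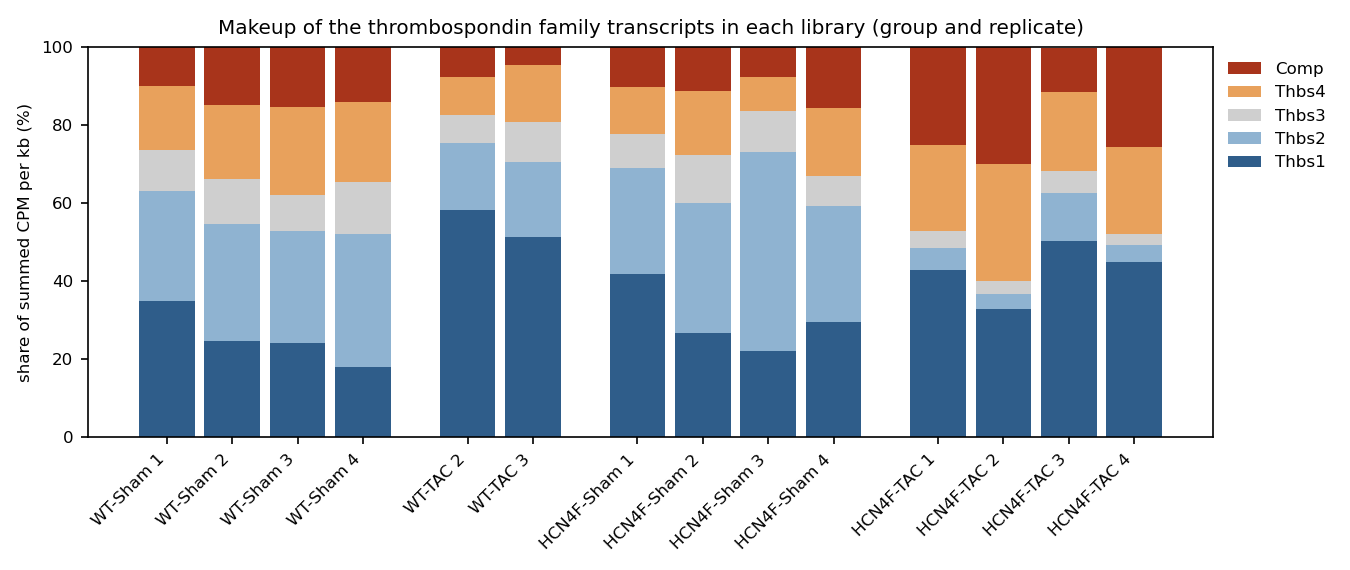
Share of each thrombospondin gene in the summed CPM per kb of the family (vertical axis, percent) in every library, labelled by group and replicate number. Thbs2 makes up 27.1% to 51.1% of the family in the Sham libraries and 4.00% to 12.3% in HCN4F-TAC, and Thbs1 holds 51.2% and 58.3% in WT-TAC.

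The HCN4F-TAC libraries differed among themselves. Replicate 3 was the lowest of the 4 for 9 of the 10 genes and the highest for Thbs2, and replicate 2 was the highest for 7 genes. The same held more widely: of the 242 genes called higher with TAC in HCN4F mice, 72.7% were lowest in replicate 3 and 53.3% were highest in replicate 2. The coefficient of variation within HCN4F-TAC was 61.0% for Comp, 60.7% for Spp1, 52.4% for Thbs4 and 50.2% for Postn, but 16.3% for Thbs2, 17.2% for Thbs3 and 18.4% for Sparc. The rises of Thbs1, Thbs4, Comp, Postn and Tnc in HCN4F mice were called with each library left out in turn.

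Levels of cell type markers moved along with some of these values. Of 7 markers of activated fibroblasts, 4 rose with TAC in HCN4F mice (1.58% of all tested genes were called higher). None was called in WT mice (0.445% of all tested genes higher and 0.262% lower). In HCN4F mice Cilp stood at a log2 fold change of 3.27 (SE 0.43), Cthrc1 at 2.18 (SE 0.66), Mfap4 at 1.85 (SE 0.34) and Meox1 at 1.43 (SE 0.23). The contractile marker Acta2 stood at -0.33. The summed level of the 7 markers was 196 to 252 CPM in WT-Sham, 150 to 230 in HCN4F-Sham, 172 to 182 in WT-TAC and 184 to 296 in HCN4F-TAC, where replicate 3 was lowest with 184. Of 8 general fibroblast markers 2 rose in HCN4F mice, Mfap5 and Pdgfrl (1.58% of all tested genes were called higher). The sum of the 8, 1231 to 1547 CPM in HCN4F-TAC, overlapped with the 1263 to 1678 of HCN4F-Sham.

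Among 8 markers of tendon and cartilage, the tissues best known for Comp, Tnmd and Col2a1 were not tested. In HCN4F mice 4 of the 8 rose (Fmod, Acan, Sox9 and Scx), where 1.58% of all tested genes were called higher. Cnmd fell in both genotypes, where 0.262% (WT) and 1.16% (HCN4F) of all tested genes were called lower. The sum of the 8 was 23.1, 47.3, 19.5 and 36.4 CPM in HCN4F-TAC replicates 1 to 4, against 9.83 to 15.4 over the Sham libraries and 11.8 and 13.3 in WT-TAC. The defining cartilage collagen Col2a1 was at no more than 0.0814 CPM in any library, and the tendon marker Tnmd at no more than 0.428. The 8 macrophage markers summed to 175 to 286 CPM in HCN4F-TAC and 185 to 249 in HCN4F-Sham, and none was called. In WT-TAC they summed to 171 and 185 CPM, so that the groups overlapped. Between the Sham groups all 8 had higher fitted levels in HCN4F mice, from 0.04 (Cd68) to 0.96 (Gpnmb) on the log2 scale, and none was called. Between the TAC groups all 8 were higher in HCN4F mice as well, with a median difference of 0.58 beside 0.0036 over all tested genes. None was called there, with Trem2 at 0.93 (adjusted p = 0.246 in edgeR's test), Cd68 at 0.74 (0.238) and C1qa at 0.60 (0.264). Spp1, which macrophages also express, had a difference of the same sign, called by DESeq2 and not by edgeR with all libraries, and the part of these markers in it was not tested.

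The 7 cardiomyocyte markers all had negative log2 fold changes in HCN4F mice, with a median of -0.27, and none was called. Their sum was 45195 to 57489 CPM in HCN4F-TAC, lowest in replicate 2, and 61072 to 71731 over all other libraries. The 5 atrial markers summed to 41.6 CPM in HCN4F-TAC replicate 2 and 12.9 to 19.2 in the other 3. The sums were 23.7 to 26.7 in WT-Sham, 26.5 to 34.0 in HCN4F-Sham and 16.7 to 23.0 in WT-TAC. Stard10 alone of them was called, lower with TAC in HCN4F mice (log2 fold change -1.12, with 1.16% of all tested genes called lower). Myl7 (2.99) and Myl4 (1.60) had positive values there without a call, and Sln and Bmp10 were not tested. Of the 5 platelet markers, included since platelets carry Thbs1, none was called, and their sums overlapped between all groups except WT-TAC, which was lower (5.38 and 6.24 CPM against 6.43 to 12.7). Markers of smooth muscle and pericytes, of endothelium and of epicardium were not called in either genotype with TAC. In tissue RNA, a change in the number of cells and a change in RNA per cell cannot be told apart, and the part of these markers in the results was not tested.

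The wider pathway was described with 96 related genes in 6 lists, of which 87 were tested. TAC raised 3 of them in WT mice, where 0.445% of all tested genes were called higher, and 14 in HCN4F mice, where 1.58% were, by edgeR's test. None was called lower, beside 0.262% and 1.16% of all genes. Neither genotype comparison called any of the 87, with 16 of them at an unadjusted p under 0.05 in Sham hearts (15.2% of all tested genes) and 34 in TAC hearts (12.5%), and DESeq2 on all groups called 4 in TAC hearts (0.561% of all genes). The median log2 fold change of the 87 was 0.13 in WT mice, beside -0.02 over all tested genes, and 0.31 in HCN4F mice, beside -0.01.

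Of 14 tested matricellular genes outside the set, 1 rose in WT mice (0.445% of all tested genes were called higher) and 4 in HCN4F mice (1.58%). Ctgf, a matricellular growth factor modulator, went from 65.9 ± 23.6 to 246 ± 55.8 CPM in HCN4F mice (log2 fold change 1.90, SE 0.30), and its relative Cyr61 from 77.7 ± 8.05 to 182 ± 34.8 CPM (1.23, SE 0.13). Cyr61 was also the gene of this list that rose in WT mice, from 41.2 ± 1.56 to 132 ± 30.4 CPM (1.68, SE 0.15), while Ctgf stood at 0.98 (SE 0.34) there and was not called by edgeR's test. Between the Sham groups Cyr61 was higher in HCN4F mice by 0.91 (SE 0.13, adjusted p = 0.00349 in edgeR's test), under the fold required for a call. Wisp2, of the same family, rose in HCN4F mice (1.36, SE 0.26) and stood at 0.31 (SE 0.33) in WT mice, where it was not called.

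Of 20 receptors, 1 rose in WT mice (0.445% of all tested genes were called higher) and 2 in HCN4F mice (1.58%). Cd44, a receptor of osteopontin and hyaluronan, rose in both genotypes, by 1.13 on the log2 scale (SE 0.24) in WT and 1.09 (SE 0.20) in HCN4F mice, and Itga9, an integrin subunit that binds tenascin C and osteopontin, by 1.10 (SE 0.12) in HCN4F mice, with 0.81 (SE 0.15) in WT mice. The WT call of Cd44 was lost in edgeR's test without WT-TAC replicate 3 (log2 fold change 0.65, adjusted p = 0.341), without WT-Sham replicate 1 (adjusted p = 0.0626) and without the filter on low counts (0.0516), and its HCN4F call without HCN4F-TAC replicate 1 (log2 fold change 0.89). The remaining 18 were not called in either genotype. They included the thrombospondin receptors Cd36 (0.15 in WT, -0.20 in HCN4F) and Cd47 (-0.16 and -0.11). Among the 18, Itga5 passed the adjusted p but not the fold, at 0.83 in WT (adjusted p = 0.00107 in edgeR's test) and 0.85 in HCN4F mice (1.94e-05). The same held for Itgav in both genotypes (0.50 and 0.33) and for Itgb1, Itgb3 and Itgb5 in HCN4F mice (0.24, 0.63 and 0.34).

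Of 14 tested collagens and matrix partners, none rose in WT mice (0.445% of all tested genes) and 4 in HCN4F mice (1.58%). Col12a1, a fibril-associated collagen, rose by 1.98 on the log2 scale (SE 0.35), the crosslinking enzyme Lox by 1.20 (SE 0.18) and Col1a1 by 1.14 (SE 0.18), and the list's median was 0.85, beside -0.01 over all tested genes. In WT mice the median of the list was 0.15, beside -0.02, with Col12a1 at 0.83 (SE 0.47), Lox at 0.16 (SE 0.22) and Col1a1 at 0.25 (SE 0.22).

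Of 13 genes of transforming growth factor beta signaling, 3 rose in HCN4F mice (1.58% of all tested genes). Ltbp2, a matrix protein of the latent binding family, went from 4.83 ± 1.60 to 37.8 ± 21.0 CPM in HCN4F mice (log2 fold change 2.97, SE 0.43). In WT mice it went from 3.00 ± 0.185 to 7.28 ± 1.24 CPM (1.29, SE 0.54, adjusted p = 0.190), which edgeR's test did not call with all groups in the fit. The WT change was called by DESeq2 (adjusted p = 1.83e-08) and edgeR (0.000634) on the compared groups alone, and by edgeR without HCN4F-TAC replicate 3 (0.0350). The ligand Tgfb2 rose by 1.21 (SE 0.17) in HCN4F mice, with 0.66 (SE 0.20) in WT mice, where it was not called. Of 11 matrix proteases, Mmp3 alone was called higher, in HCN4F mice (1.58% of all tested genes). Its log2 fold change was 1.12 (SE 0.21) in HCN4F mice, a call lost without HCN4F-TAC replicate 2 (0.91), and -0.60 in WT mice.

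Thbs4 has been linked to Atf6 and to protein folding in the endoplasmic reticulum. Of 15 genes of this list 0 were called by edgeR's test, which at 0.445% (WT) and 1.58% (HCN4F) of all tested genes called higher does not set the list apart. Their median log2 fold change was 0.04 in WT and 0.05 in HCN4F mice, beside -0.02 and -0.01 over all tested genes. Atf6 itself stood at 0.66 in WT mice (adjusted p = 0.0134 in edgeR's test) and 0.32 in HCN4F mice (0.0538), and the chaperone Hspa5 at 0.22 and 0.05.

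**Figure D4:**
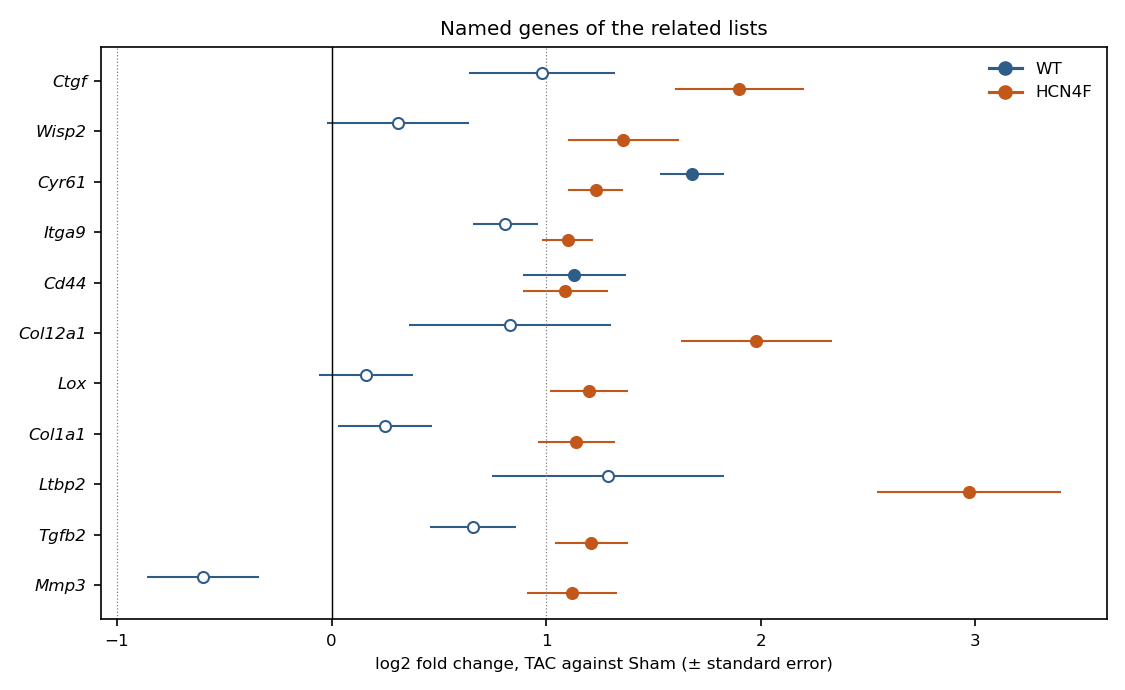
Log2 fold change with TAC (horizontal axis, bars are standard errors) of the named genes of the related lists in WT and HCN4F mice; filled points were called and dotted lines mark the fold required. Cyr61 and Cd44 were called in both genotypes, and Ltbp2 reaches 2.97 in HCN4F mice.

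The genes whose pattern over the 14 libraries was most like that of each gene were found by the root mean square difference of centred log2 levels, where a smaller value means a closer match. Postn was followed by Mfap4 (0.22) and Pamr1, Sparc by Col5a1 (0.11) and Col6a2, and Fn1 by Sulf1 and Fbln2 (0.12 each). Nearest to Thbs4 were Cilp (0.46) and Frem1, to Comp Cilp2 (0.61) and Ltbp2, and to Tnc Gdf6 and Itgbl1 (0.26 each). Spp1 lay nearest to Cilp2 (0.56) and Frzb.

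Thbs1 was nearest to Serpinb1c and Myh7 (0.47 each), the latter encoding the slow myosin heavy chain of cardiomyocytes. Thbs3 was nearest to Ace and Col4a1 (0.12 each), and Thbs2 to Cep290 and Tmem231 (0.16 each). By Pearson's correlation in place of this difference, 2 of the 20 pairs were the same, both of Fn1, so the neighbours depend on the measure. All genes were compared in the same 14 libraries and share their depth.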

How the data were processed

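RNA-Seq of poly(A) RNA from the left ventricle was analysed for 14 libraries, grouped by their sample labels. The authors deposited raw read counts per gene, without normalization; their build was GRCm38 per the labels, and aligner, counter and strand setting are not given in the sources used here. The study described 4 WT-TAC samples, of which 2 were analysed here. A further 2 columns carry the WT-TAC group in their names but match no single sample label; they were not used, so WT-TAC values rest on 2 libraries.

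Counts were filtered with filterByExpr by group, scaled with TMM and fitted in 1 model with a mean per group by edgeR 4.0.16 (R 4.3.3, quasi-likelihood test, robust), and p-values were adjusted after Benjamini-Hochberg across the 15292 genes tested. Calls required an adjusted p under 0.05 together with a change of more than 1 on the log2 scale, and the interaction at the adjusted p alone. "Rose", "fell" and "raised" refer to such calls. CPM values have no prior count, and pattern distances used log2 CPM with a prior count of 2. Exon lengths came from GENCODE M21, which held 99.3% of the gene IDs. Steps were tested on simulated data.

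The members and lists were chosen with earlier results of these data known. Named genes were all 10 members, up to 3 called genes of each related list with the largest change in HCN4F mice, the 2 genes nearest in pattern, Hcn4 and markers. Other genes of the lists were named after their values were seen, and 1 called gene of the related lists is not reported here. Alternatives were DESeq2 1.42.0, other scaling and filters, non-robust estimation, a replicate block, other call rules and leaving out each library. Figures were drawn with matplotlib 3.10.9.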

Additional observations from a re-analysis of the deposited data

Results flagged for a closer look

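In HCN4F-Sham, replicate 1 was set apart from the other 3 libraries of its group for 2 genes: Postn at 18.4 CPM, against 24.0 to 24.4 in the others, and Fn1 at 36.0 CPM, against 61.9 to 65.2. In both cases the gap to the next library, divided by the range of the group, exceeded Dixon's 95% critical value for 4 samples. Of 30 groups tested (10 genes in 3 groups of 4 libraries), 2 were set apart, and chance gives about 1 in 20. The same library was the lowest of its group in the summed level of several marker lists, with 554 CPM for smooth muscle and pericytes, against 824 to 898 in the other 3, 679 CPM for endothelium, against 943 to 1237, 1263 CPM for fibroblasts, against 1445 to 1678, and 150 CPM for activated fibroblasts, against 162 to 230. It was the highest for macrophage markers, at 249 CPM against 185 to 240. Its mitochondrial share was the lowest of the group, at 17.1% against 20.2% to 21.4%. The part of these markers and of the mitochondrial share in the Postn and Fn1 values was not tested.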

How the results depend on the processing

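For the 50 results of the 10 genes, 1073 alternative values came from other fits, scaling and filters and from leaving out each library. Of these, 1026 kept direction and side of the threshold, 9 lost a call, 22 gained one and 16 changed sign, and 32 of the 50 results kept both throughout. The other call rules, the adjusted p alone and glmTreat, are not in this tally and changed further calls, as their counts below show. Counts of the 10 genes called between the TAC groups were 5 by DESeq2 on all groups (0.561% of all genes), 4 by DESeq2 on the compared groups (0.490%), 2 without robust estimation and 1 without a filter, against 0. Those of the related genes were 4, 3, 1 and 1, against 0. For the interaction DESeq2 called 2 of the 10 (0.284% of all genes), against 0. For the other settings of this paragraph the share of all genes called is not given here, so their counts cannot be set against it. In TAC against Sham the adjusted p alone called 10 of the 10 genes and 39 related genes in HCN4F mice and 8 related genes in WT mice; glmTreat called 0 of the 10 in WT and 1 in HCN4F mice, and 0 related genes in both; without a filter 1 related gene was called in WT mice. Leaving out 1 library gave 0 to 1 of the 10 genes and 1 to 4 related genes in WT mice, 5 to 6 and 11 to 18 in HCN4F mice, 0 to 5 and 0 to 8 between the TAC groups, and 0 to 3 of the 10 for the interaction. Of the 20 nearest genes, 2 were the same by Pearson's r and 17 with a prior count of 0.5.

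The values that changed sign were of comparisons in which the gene was not called. Without a filter Thbs4 in WT mice was 0.0001. Samples that share a replicate number did not vary together (correlations of -0.12 to 0.16 over 18 pairs, 2 above 0.1), so the numbers do not pair the samples. A fit with the replicate number as a block called the same counts of the 10 genes in all 5 comparisons, and gave 0.000066 for Thbs4 in WT mice, -0.07 for Comp between the Sham groups and 0.0034 for Thbs2 between the TAC groups. With 1 library left out, log2 fold changes in WT mice ran from -0.21 to 0.14 for Thbs2, -0.12 to 0.11 for Thbs4, -1.10 to 0.10 for Comp, -0.17 to 0.76 for Spp1 and -0.09 to 0.60 for Wisp2. Between the Sham groups they ran from -0.08 to 0.10 for Thbs3, -0.31 to 0.22 for Comp and -0.08 to 0.15 for Sparc, and between the TAC groups from -0.25 to 0.10 for Thbs2 and -0.05 to 0.79 for Cd44. The cause of these shifts was not tested. With 2 WT-TAC libraries, where leaving out one leaves a lone sample that is assumed to vary like the other groups, the comparisons with WT-TAC are the least precise, and Spp1 is limited by depth.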
